A study of Sus scrofa with 8 samples.

Results

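The 8629 regions described here are the stretches of the pig genome at the ends of protein-coding genes that carried H3K27ac in both cell types of the study. They were found by merging islands that overlap, where an island is a stretch in which ChIP reads cluster, over 4 H3K27ac libraries on chromosomes 1 to 18. A merged region was kept when it was under 20 kb wide, held an island from all 4 libraries and overlapped the 2 kb on either side of an end of a protein-coding gene. These members are 8629 of 98547 merged regions and 8629 of the 20051 regions with an island from all 4 libraries. They were thus chosen on measured values, the presence of an island in every library, and that presence is a description and no result. The pgEpiSC are pre-gastrulation epiblast stem cells of the pig, labelled as epiblast of embryonic day 10, with the libraries pgEpiSC 1 and pgEpiSC 4. They were set against pEF, porcine embryonic fibroblasts labelled as fetal, of embryonic day 30, with the libraries pEF 1 and pEF 2. The labels name no genetic change or treatment in either type, and they do not say whether the 2 libraries of a type came from separate lines, animals or cultures. The p-values below therefore measure the spread between these libraries, which may be technical.

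H3K27ac is acetylation of lysine 27 on histone H3, laid down by the acetyltransferases p300 and CBP and removed by histone deacetylases. It marks the nucleosomes around the start sites of active genes and those of active enhancers. Promoters of genes that every cell needs carry it in most cell types, whereas genes of one lineage are often marked by wider domains or by enhancers away from the gene. The gene table used here gives no strand, so the start of a gene could not be told from its other end, and each gene contributed both.

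ChIP reads inside all islands of a library ranged from 29679982 to 38230571 in pgEpiSC and from 42444995 to 46383051 in pEF. The members took 17.0% and 16.7% of these reads in pgEpiSC 1 and 4, and 21.6% and 20.3% in pEF 1 and 2. Island length was summed over all regions at the ends of 9 marker genes of each type. All 9 pgEpiSC markers had more of it in both pgEpiSC libraries than in either pEF library, and 8 of the 9 pEF markers had more in both pEF libraries. SOX2, a core pluripotency factor, had 67.8 and 65.8 kb in pgEpiSC against 3 and 2.8 kb in pEF, and TWIST1, a mesenchymal transcription factor, had 0 kb in both pgEpiSC libraries against 24 and 21.8 kb in pEF. The exception was the fibroblast marker PDGFRB, with 35 and 40.2 kb in pgEpiSC against 28.4 and 22.8 kb in pEF, and at THY1 the difference was small, with 7.4 and 0 kb in pgEpiSC against 9.2 and 7.8 kb in pEF. Of 14 markers of muscle, endothelium, blood, keratinocytes, trophectoderm and primitive endoderm found, 5 and 6 had an island at an end in pgEpiSC 1 and 4, and 6 had one in each pEF library. Their summed island length was 56 and 71.2 kb in pgEpiSC and 42.8 and 51.4 kb in pEF. PECAM1 of endothelium had 29.4 and 31.8 kb in pgEpiSC against 3.8 and 12 kb in pEF. DES of muscle and SPI1 of blood each had a member at an end. DES had 5.6 and 10.4 kb in pgEpiSC against 17.6 and 16.2 kb in pEF. SPI1 had 11.6 and 19 kb in pgEpiSC against 10.4 and 8.8 kb in pEF. MYOD1, KDR, KRT5, CDX2 and SOX17 had none in any library. The part of other cell types in the results was not tested, and in bulk chromatin fewer cells with the mark and less of the mark per cell cannot be told apart.

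The merged width of the members ran from 800 to 19800 bases, with a median of 7 kb and quartiles of 4.4 and 11.2 kb. Within them the islands were longer and less dense in pgEpiSC. The median length covered by a library's own islands was 5 and 4.8 kb in pgEpiSC 1 and 4, against 3.6 and 3.4 kb in pEF 1 and 2. Read density was ordered the other way, with a median of 96.7 and 124 ChIP reads per kb of island in pgEpiSC against 215 and 219 in pEF. These densities are not scaled for depth. Reads in all islands numbered 29679982 and 38230571 in pgEpiSC 1 and 4, and 42444995 and 46383051 in pEF 1 and 2, so depth enters the gap. Input reads per kb of the same islands, also unscaled, were close to each other, at 38.9 and 44.1 in pgEpiSC and 38.1 and 37.8 in pEF. The fold of ChIP over input, scaled as in the deposited lists, had a median of 2.58 and 2.34 in pgEpiSC against 7.33 and 6.65 in pEF, and both pgEpiSC medians lay below both pEF medians. A fold of at least 2 was reached in 75.4% and 65.7% of members in pgEpiSC and in 98.4% and 98.1% in pEF. An island with an FDR under 0.01 was present in at least 98.4% of members in each of the 4 libraries.

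The same 4 libraries were compared at the 7891 shared regions of under 20 kb that lay away from gene ends. Median fold over input was higher at gene ends in every library. The difference of the medians, members minus regions away from gene ends, was 0.796 and 0.641 in pgEpiSC 1 and 4 and 3.66 and 3.01 in pEF 1 and 2 (mean 2.03 ± 1.54, SD, n = 4 libraries). This mean and SD pool both types, whose values did not overlap. The exact sign-flip permutation test over libraries, two-sided, gave p = 0.125 for this difference, which is the smallest p that 4 libraries allow. Read density differed in the same direction, with a log2 ratio of the median reads per kb of 0.70 and 0.69 in pgEpiSC and 1.06 and 0.97 in pEF (mean 0.86 ± 0.19, SD, n = 4; exact sign-flip p = 0.125). Island length ran the other way: the median was 5.8 and 5.4 kb in pgEpiSC and 3.8 and 4 kb in pEF away from gene ends, which is longer than at gene ends in each library. Regions at gene ends that only 1 type carried also had a lower median fold than the members. These classes were chosen on island calls, which depend on ChIP over input, so this difference is a description. Median fold was 1.69 and 1.61 at the 2454 regions with islands in both pgEpiSC libraries and none in pEF, and 3.77 and 3.48 at the 1528 regions with islands in both pEF libraries and none in pgEpiSC.

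**Figure D1:**
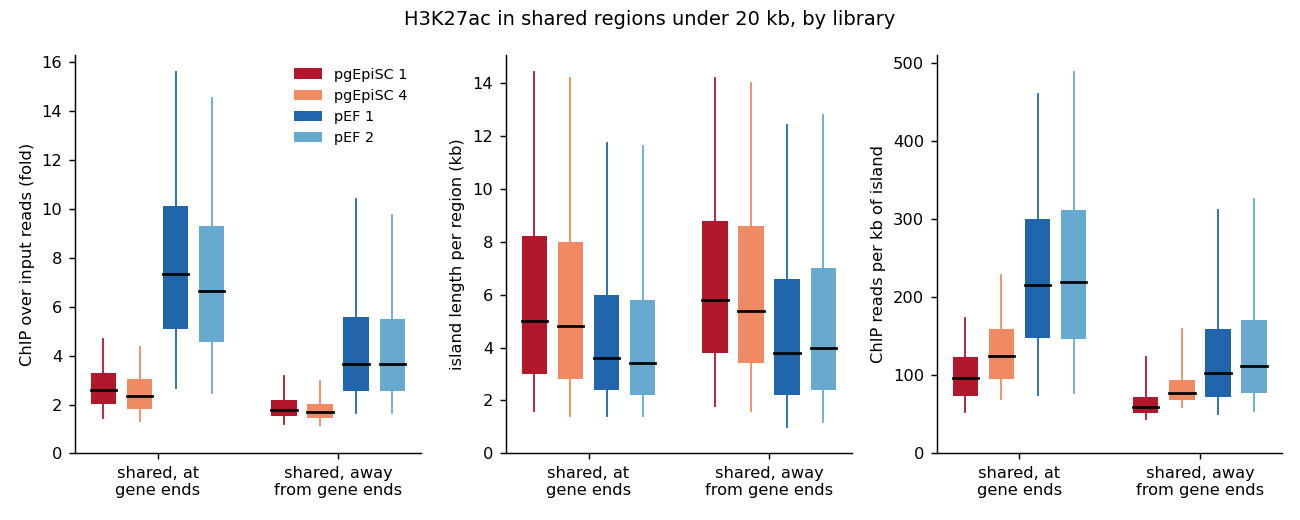
Fold over input, island length per region in kb and ChIP reads per kb of island in each library, for shared regions at gene ends and shared regions away from them. Reads per kb are not scaled for depth. Bars span the quartiles, black lines are medians and thin lines run from the 5th to the 95th percentile; the median fold at gene ends is 2.58 and 2.34 in pgEpiSC and 7.33 and 6.65 in pEF.

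Most members lay across the gene end itself. The rule kept only regions that overlap the 2 kb on either side of an end. Coverage near the end is thus partly set by the rule and is a description. A gene end fell inside 8175 of the 8629 members (94.7%), and inside an island of the library in 89.7%, 88.8%, 86.7% and 86.4% of members in pgEpiSC 1, pgEpiSC 4, pEF 1 and pEF 2. At the 5474 members with exactly 1 gene end, coverage by islands was lopsided towards the gene. At the end itself 87.1% and 86.1% of these members were covered in pgEpiSC, and 84.4% and 84.2% in pEF. At 2 kb into the gene 57.2% and 51.8% were covered in pgEpiSC and 45.4% and 45.0% in pEF, whereas at 2 kb outside it the values were 35.7% and 33.4% in pgEpiSC and 21.7% and 21.6% in pEF. Coverage was thus higher on the gene side than outside in all 4 libraries, and higher in both pgEpiSC libraries than in both pEF libraries at each of these distances. By 10 kb outside the gene it had levelled at 19.6% and 20.4% in pgEpiSC and 14.8% and 14.1% in pEF.

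**Figure D2:**
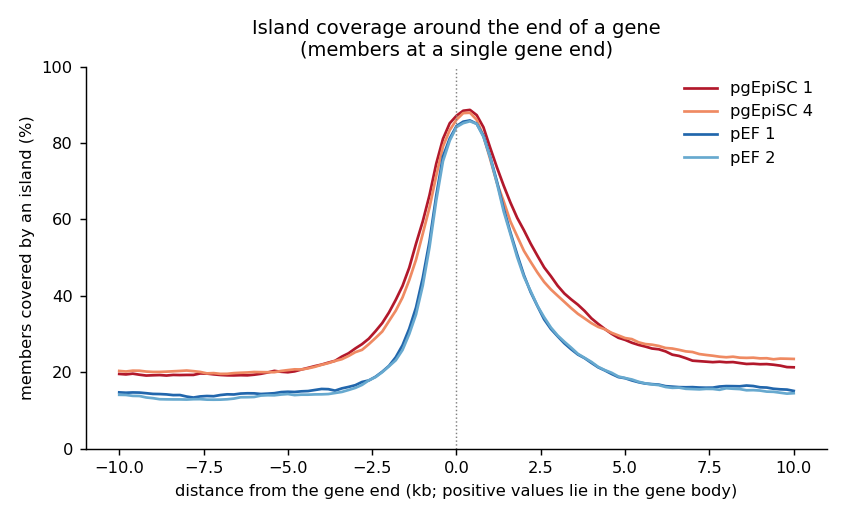
Share of members at a single gene end (5474) that is covered by an island of each library, by distance from that end in kb, with positive distances inside the gene. All 4 curves peak just inside the gene, and both pgEpiSC curves lie above both pEF curves except from 800 to 1200 bases inside the gene, where pgEpiSC 4 lies among or just below the pEF curves. High coverage near the end is partly set by the rule, which kept regions that overlap the 2 kb on either side of an end.

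The regions overlapped a good deal between types but were not the same stretch of DNA. The median Jaccard index, the bases covered by both libraries over those covered by either, was 0.714 between the pgEpiSC libraries and 0.786 between the pEF libraries, against 0.520 to 0.529 for the 4 pairs across types. The core covered by all 4 libraries had a median of 2.2 kb, or 36.8% of the merged width, and 154 members had no base covered by all 4. In 2006 members (23.2%) every pEF island lay within the bases covered by both pgEpiSC libraries, and the converse held in 771 (8.93%).

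In all, 10158 of 18722 protein-coding genes (54.3%) had a member at an end, and among the genes with a symbol of their own the share was 60.8%. Chromosomes differed in this share, from 39.8% of genes on chromosome 9 to 61.8% on chromosome 3. A single gene was touched by 5867 members, 2 genes by 2328, 3 genes by 359 and 4 or more by 75. The most, 6 genes, were touched by a region of 17.8 kb on chromosome 2 (7068201 to 7086000) at MRPL49, FAU, ZNHIT2, TM7SF2, VPS51 and SYVN1. CPM here are ChIP reads of a region scaled by TMM to the library's reads in all shared regions. They were 107 and 106 in pgEpiSC against 104 and 86.9 in pEF, so the pgEpiSC values lay just above the pEF values. Its log2 fold change of pgEpiSC over pEF was 0.16 ± 0.19 (SE, edgeR adjusted p = 0.522). Members at both ends were found for 2882 genes, of which 1278 were spanned by the same member. These genes were short, with a median length of 8.80 kb, against 33.4 kb for genes with a member at 1 end and 15 kb for genes with none.

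Read counts in the members were compared between pgEpiSC and pEF by edgeR's quasi-likelihood test, fitted over all 20051 shared regions with Benjamini-Hochberg adjustment at 0.05. Calls towards pgEpiSC numbered 1341 (15.5% of members) and calls towards pEF 2135 (24.7%), and 5153 (59.7%) passed in neither direction. Over all 20051 regions the shares were 22.7% higher in pgEpiSC and 23.5% higher in pEF, so calls towards pEF were near that background and calls towards pgEpiSC were below it. The median log2 fold change of the members was -0.20, against -0.01 over all regions and 0.24 over the 7891 shared regions away from gene ends. The requirement of an island in all 4 libraries limits how far a member can differ. CPM did not overlap between types in 78.7% of members, against 77.8% of all 20051 regions. The median absolute log2 difference in CPM was 0.207 between the pgEpiSC libraries and 0.254 between the pEF libraries, against 0.731 to 0.755 between libraries of different types. The counts depended on having both pgEpiSC libraries: without pgEpiSC 1 they were 454 and 673, and without pgEpiSC 4 they were 403 and 657, higher in pgEpiSC and higher in pEF.

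**Figure D3:**
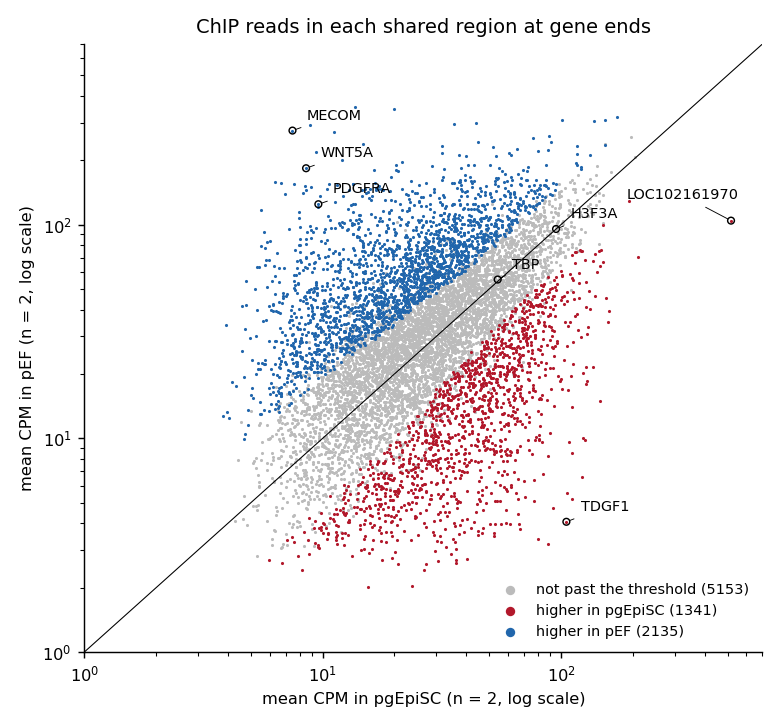
Mean CPM of each of the 8629 members in pgEpiSC (x axis) and in pEF (y axis), n = 2 libraries each, both on log scales, with members called by edgeR at an adjusted p under 0.05 in colour. The 2135 members higher in pEF outnumber the 1341 higher in pgEpiSC, and 5153 lie between them.

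The reads of a library were counted inside its own islands, so a count joins the length of the islands with their density. Input reads in the same islands were tested in the same way and differed in 1815 members, 937 higher in pgEpiSC and 878 higher in pEF, against 15.4% and 14.1% of all regions. Of the 3476 members called on ChIP reads, 1472 had an input call in the same direction and 0 in the opposite one (706 of 1341 higher in pgEpiSC and 766 of 2135 higher in pEF). Across the 8629 members the log2 fold change in ChIP reads had a Spearman rho of 0.83 with that in island length and of 0.83 with that in input reads, a description over regions that share the same 4 libraries. Input and ChIP reads were summed over the same islands. Island length therefore enters both, and their agreement is partly built in. Copy number and mappability were not tested. Island length itself, tested by limma on log2(kb), was higher in pgEpiSC in 1633 members and higher in pEF in 487, against 23.2% and 7.54% of all regions. The fold over input, tested by limma on its log2, was higher in pgEpiSC in 13 members and higher in pEF in 7662, against 0.170% and 80.2% of all regions, with a median log2 fold change of -1.46 in members and -1.31 in all regions.

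Density was therefore compared as well. By limma on log2 reads per kb of island, scaled by all ChIP reads in the library's islands, 258 members were called towards pgEpiSC and 3503 towards pEF, against 5.51% and 34.5% of all regions. With the median region of every library set to 0 the counts were 1035 and 985, a measure called centred density below, against 19.2% and 10.9% of all regions. Of the 1341 members higher in pgEpiSC by read count, 539 were also higher in pgEpiSC by centred density, and of the 2135 higher in pEF, 533 were higher in pEF. In 78 members the centred density was called in the opposite direction. The split of calls also moved when members alone entered the edgeR fit, to 1975 higher in pgEpiSC and 2075 higher in pEF.

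The share of calls was also tallied by merged width. That width is the union of the same islands whose reads were summed, and islands were longer in pgEpiSC, so the width classes are not independent of the difference and the tally is a description. Of the 1672 members under 4 kb, 5.74% were higher in pgEpiSC and 24.3% higher in pEF, and of the 743 members of 16 to 20 kb, 31.2% were higher in pgEpiSC and 23.3% higher in pEF. The share higher in pgEpiSC was larger in each wider class, at 11.03%, 19.3% and 26.5% in between. The median log2 fold change ran from -0.43 in the narrowest to 0.19 in the widest class. Fold over input was lower in the widest members than in the narrowest in all 4 libraries, at 2.30 and 2.14 against 2.75 and 2.45 in pgEpiSC, and at 6.65 and 6.08 against 7.60 and 6.61 in pEF.

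Among members higher in pgEpiSC, the largest log2 fold changes included those at TDGF1, PARP1 and other genes whose region was nearly filled by islands in pgEpiSC and held a short island in pEF. TDGF1 encodes the NODAL co-receptor CRIPTO, a gene of the pluripotent epiblast, and was the only one of 14 core pluripotency genes found with a member at an end; 8 others had a wider shared region. Its region on chromosome 13 (29529801 to 29547400) had 105 and 106 CPM in pgEpiSC against 3.93 and 4.21 CPM in pEF, with islands over 17.4 and 17.2 kb in pgEpiSC against 2.4 and 1.6 kb in pEF. Both pgEpiSC values were far above both pEF values (log2 fold change 4.69 ± 0.22, SE, edgeR adjusted p = 0.00124). PARP1, a sensor of DNA breaks that makes poly(ADP-ribose), had 114 and 130 CPM in pgEpiSC against 5.25 and 7.98 CPM in pEF (4.21 ± 0.30). These members were chosen among those whose CPM did not overlap between types, so that separation is set by the rule.

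LAPTM4B, a lysosomal membrane protein, had 114 and 109 CPM in pgEpiSC against 5.28 and 5.09 CPM in pEF. Other regions among the largest were at PKLR, the pyruvate kinase of liver and red cells, at the receptor gene MRGPRG, and between SAP30BP and ITGB4, the integrin subunit of hemidesmosomes, with log2 fold changes of 4.29, 4.56 and 4.25. These 6 regions, with those at TDGF1 and PARP1, were 17.6 to 19.4 kb wide. All 6 also had more input reads in pgEpiSC, and 5 of the 6 were higher in centred read density, PKLR being the exception at 0.58 (limma adjusted p = 0.122). Fold over input was higher in both pgEpiSC libraries only at TDGF1, at 3.06 and 2.92 against 1.34 and 2.36 in pEF. At PKLR it was lower, at 2.09 and 2.14 in pgEpiSC against 5.85 and 2.47 in pEF. At the others of the 6 the folds of the types overlapped. Over all members the median fold was lower in pgEpiSC, as given above.

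Among members higher in pEF the largest differences stood at MECOM, DSE, IL1B and 5 other regions. MECOM, a zinc finger transcription factor, had the largest: its region of 15.6 kb on chromosome 13 (108327401 to 108343000) had 7.13 and 7.82 CPM in pgEpiSC against 300.5 and 250.3 CPM in pEF (log2 fold change -5.20 ± 0.23, SE, edgeR adjusted p = 0.00124). WNT5A, a WNT ligand of non-canonical signalling, had 7.46 and 9.58 CPM in pgEpiSC against 172 and 195 CPM in pEF (-4.43 ± 0.24). ZEB1, a repressor that drives epithelial to mesenchymal transition and whose region also touches ZNF438, had 6.06 and 7.32 CPM in pgEpiSC against 160.0 and 152 CPM in pEF (-4.54 ± 0.23). In all 3 both pgEpiSC values lay far below both pEF values. These members too were chosen among those whose CPM did not overlap between types.

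DSE, an epimerase that forms dermatan sulfate, had 8.47 and 9.31 CPM in pgEpiSC against 252 and 335 CPM in pEF. ARID5B, a DNA-binding cofactor of histone demethylation, had 13.9 and 4.93 CPM in pgEpiSC against 227 and 208 CPM in pEF. IL1B, an inflammatory cytokine, had 17.9 and 9.45 CPM in pgEpiSC against 223 and 488 CPM in pEF (-4.70 ± 0.55). The libraries of each type thus lay far apart, and non-overlap of the types was required by the rule. The remaining regions were at CAMSAP2, which binds the minus ends of microtubules, and between ZADH2 and TSHZ1, with log2 fold changes of -4.61 and -4.63. These 8 regions were 11.6 to 19.4 kb wide with islands over 0.6 to 5 kb in a pgEpiSC library, all 8 had more input reads in pEF, and 6 were higher in pEF by centred density. PDGFRA, a receptor that marks fibroblasts, also had a member, with 9.20 and 9.99 CPM in pgEpiSC against 109 and 140 CPM in pEF (-3.70 ± 0.24, edgeR adjusted p = 0.00128). The related fibroblast marker PDGFRB had no member, and its islands were longer in pgEpiSC, as given above.

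**Figure D4:**
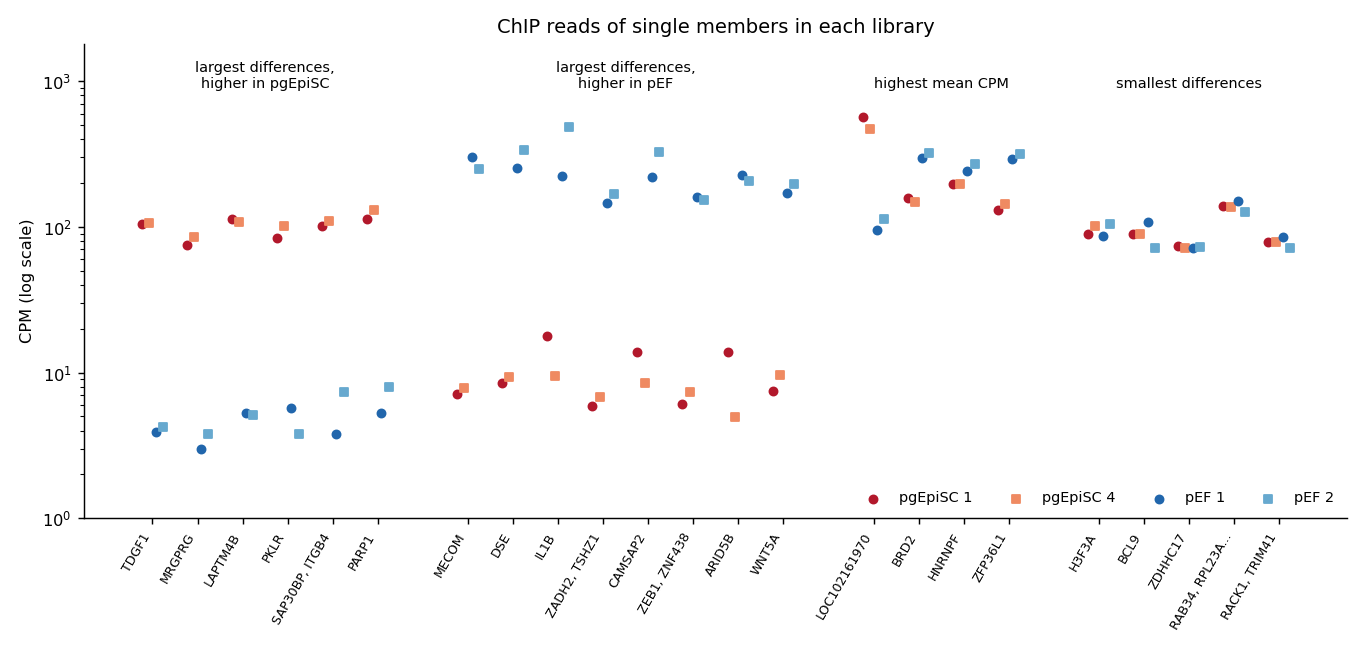
CPM in each library, on a log scale, for members among the largest differences in each direction, members with the highest mean CPM and the 5 with the smallest differences among the 1000 highest. In the first 14 the values of the types are separated by about an order of magnitude or more, and in the last 5 they overlap or nearly touch. The first 14 were chosen for large differences without overlap and the last 5 for small ones, so both patterns are set by the rule.

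The members with the most reads per region, not divided by width, included those at BRD2, HNRNPF, ZFP36L1 and a gene with no symbol. BRD2, a bromodomain reader of acetylated histones, had 157 and 149 CPM in pgEpiSC against 299 and 320.1 CPM in pEF (log2 fold change -1.02 ± 0.17, edgeR adjusted p = 0.00817). HNRNPF, a splicing regulator, had 196 and 198 CPM in pgEpiSC against 241 and 270.2 CPM in pEF and did not pass (-0.38 ± 0.17, edgeR adjusted p = 0.127). ZFP36L1, an RNA-binding protein that promotes decay of AU-rich mRNAs, had 130.3 and 145 CPM in pgEpiSC against 291 and 317 CPM in pEF (-1.15 ± 0.18). By centred density BRD2, at -0.019 (limma adjusted p = 0.969), and ZFP36L1, at -0.30 (limma adjusted p = 0.306), did not pass. The highest was a region of 1.8 kb at LOC102161970, the gene with no symbol, with 566 and 467 CPM in pgEpiSC against 94.8 and 114 CPM in pEF. Its input held 9960 and 12610 reads in pgEpiSC and 6563 and 7689 in pEF, and its fold over input was 1.06 and 0.686 in pgEpiSC and 0.488 and 0.466 in pEF, which is under 1 in 3 of the 4 libraries. Whether its reads come from repeated or misassembled sequence was not tested.

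The smallest differences among the members with the most reads came with standard errors of 0.18 to 0.25. H3F3A, which encodes the replication-independent histone H3.3, had 88.9 and 102 CPM in pgEpiSC against 86.0 and 105 CPM in pEF (log2 fold change -0.00 ± 0.20). ZDHHC17, a palmitoyltransferase, had 73.9 and 71.8 CPM in pgEpiSC against 72.0 and 73.3 CPM in pEF, yet its islands covered 16 and 14.8 kb in pgEpiSC and 9 and 10.6 kb in pEF. The others of the 5 smallest differences were at BCL9, a co-factor of beta-catenin, at RACK1 and TRIM41, and at RAB34, RPL23A, TLCD1 and NEK8. Of common reference genes, GAPDH had 77.9 and 90.7 CPM in pgEpiSC against 102 and 60.2 CPM in pEF (0.06 ± 0.30), and TBP, the TATA-binding protein, had 61.5 and 47.0 CPM in pgEpiSC against 52.2 and 58.5 CPM in pEF (-0.03 ± 0.23). The ACTB region, at 21.6 kb, was just too wide to be a member. So were those of the pluripotency factors POU5F1 (54.2 kb) and SOX2 (69.6 kb), both regions at NANOG (37.8 and 82 kb) and that of the collagen gene COL1A1 (67.6 kb).

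Genes of basic cell functions had a member far more often than genes of 1 lineage. Having a member is the rule of selection, so these shares are a description. That rule leaves out regions carried by 1 type only and regions of 20 kb or more. Of 14 core pluripotency genes found, 8 had only a wider shared region. Lists of 26 gene groups were matched to the gene table, and the share of genes with a member is read against 60.8% of all genes with a symbol. In 17 groups of basic machinery 554 of 633 genes (87.5%) had a member, and 98.3% had a member or a wider shared region. In the immediate early, heat shock and circadian groups, which hold genes that respond to signals, 42 of 77 genes (54.5%) had a member and 96.1% a member or a wider one. In the 6 groups of lineage genes 33 of 143 genes (23.1%) had a member and 46.9% a member or a wider one, below the 71.8% of all genes with a symbol. All 13 genes of the chaperonin TRiC and prefoldin had a member, as did 45 of 47 of the spliceosome, 57 of 60 of the respiratory chain, 37 of 39 of the proteasome, 36 of 38 of replication, 36 of 38 aminoacyl-tRNA synthetases, 27 of 29 of Mediator and 39 of 42 of RNA polymerase II and its general factors. Cytosolic ribosomal protein genes had a member in 52 of 74 cases, and the other 22 all had a wider shared region. The same held for immediate early genes, of which 10 of 29 had a member and the other 19 a wider region. Of 26 genes of hepatocyte plasma proteins, 4 had a member and 0 a wider shared region.

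**Figure D5:**
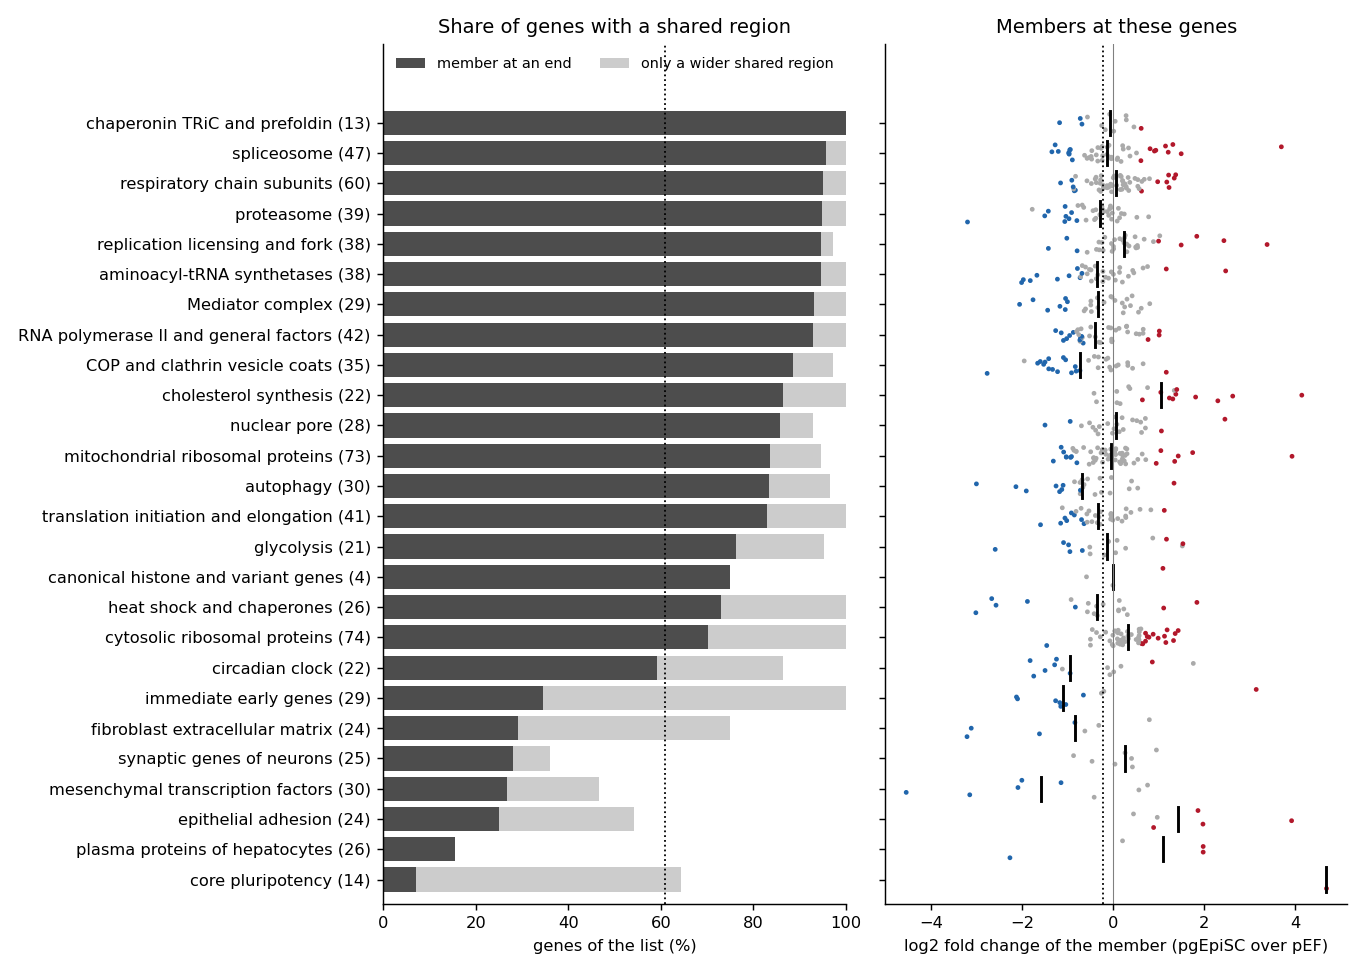
Left, the share of genes of each list that had a member at an end (dark) or only a wider shared region (light), with the number of genes found in brackets and the 60.8% of all genes with a symbol as a dotted line. Right, the log2 fold change of the member of each gene, pgEpiSC over pEF, in red where called higher in pgEpiSC and in blue where called higher in pEF by edgeR, with the list's median as a black line and the median over all genes with a symbol and a member, -0.22, as a dotted line.

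A gene with several members was represented by the one with the most reads. Over the 9536 genes with a symbol and a member, that region was higher in pgEpiSC for 14.8% and higher in pEF for 25.6%, and the median log2 fold change was -0.22. Counts per list are read against those shares. Of the 2 genes with the most reads in each of the 17 basic lists, 0 were called towards pgEpiSC, 8 towards pEF and 26 in neither direction. The other genes named below were chosen after their values were seen. Where a region touches a second gene that gene is named, since the reads cannot be divided between them.

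Sterol synthesis stood on the pgEpiSC side. Of 19 cholesterol genes with a member, 10 were called towards pgEpiSC, 0 towards pEF and 9 in neither direction, and the median log2 fold change was 1.05. SQLE, the squalene epoxidase, had 46.2 and 48.3 CPM in pgEpiSC against 20.1 and 16.1 CPM in pEF (1.38 ± 0.25). SREBF1, which encodes the lipid regulator SREBP1 and shares its region with RAI1, had 89.7 and 104 CPM in pgEpiSC against 21.1 and 18.1 CPM in pEF (2.31 ± 0.22). For both genes the pgEpiSC values exceeded the pEF values. Others called were CYP51, MVK (with MMAB), MVD (with CYBA), SC5D, ACAT2 (with WTAP and TCP1) and SCAP, the escort protein of the SREBP factors, at 0.65 to 2.63. SREBF2, the main sterol-responsive factor, whose region touches SHISA8, was at 1.35 ± 0.52 and did not pass (edgeR adjusted p = 0.0851). The counts were 4 and 0 without pgEpiSC 1 and 5 and 0 without pgEpiSC 4. By centred density 5 genes were higher in pgEpiSC and 1 was higher in pEF, and by centred island length 8 were higher in pgEpiSC and 0 in pEF. PMVK, at 0.09 ± 0.18 by read count, was the gene lower in pgEpiSC by centred density (-1.34, limma adjusted p = 0.00759).

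Vesicle coats stood on the pEF side. Of 31 genes of the COP and clathrin coats with a member, 1 was called towards pgEpiSC, 15 towards pEF and 15 in neither direction, and the median was -0.72. Components of the COPII coat, which buds vesicles from the endoplasmic reticulum, made up many of them. SEC24C, a cargo adaptor, had 17.1 and 14.7 CPM in pgEpiSC against 48.8 and 51.5 CPM in pEF (-1.65 ± 0.24, edgeR adjusted p = 0.00542), and SEC23A, its partner in the inner coat, had 13.9 and 13.4 CPM in pgEpiSC against 35.7 and 46.8 CPM in pEF (-1.60 ± 0.27). SEC31A of the outer coat had 43.8 and 42.3 CPM in pgEpiSC against 94.4 and 106 CPM in pEF (-1.22 ± 0.19), and was also lower in centred density (-1.07, limma adjusted p = 0.011). SEC13 (with ATP2B2), SEC23B, SEC24B, SEC24D, SEC31B, SAR1A and SAR1B of the same coat were also higher in pEF, but the member at the other end of SEC13 was higher in pgEpiSC (1.28 ± 0.32, edgeR adjusted p = 0.0254). SEC24D had the largest difference (-2.76 ± 0.38), in a region of 19.6 kb that also touches USP53. Its islands covered 2.8 and 3 kb in pgEpiSC against 19.2 and 12.6 kb in pEF. Its input reads were also higher in pEF (-2.87, edgeR adjusted p = 0.00185). By centred density SEC24D was at 0.24 (limma adjusted p = 0.424). Of the COPI coat, which returns vesicles to the endoplasmic reticulum, COPA (with NCSTN), COPE (with DDX49) and ARCN1 (with IFT46) were higher in pEF. COPB2 was higher in pgEpiSC (1.17 ± 0.21), but lower by centred density (-0.84, limma adjusted p = 0.0207). The counts were 1 and 2 without pgEpiSC 1, 0 and 1 without pgEpiSC 4, and 1 and 5 by centred density, higher in pgEpiSC and higher in pEF.

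Autophagy genes ran the same way, with 1 of 25 higher in pgEpiSC, 8 higher in pEF and a median of -0.68. ATG14, a subunit of the lipid kinase complex that starts autophagosomes, whose region touches TBPL2, had 16.2 and 13.2 CPM in pgEpiSC against 73.8 and 55.1 CPM in pEF (-2.13 ± 0.27, edgeR adjusted p = 0.00406). GABARAPL2, an ATG8 protein whose region also touches TMEM231, had 9.20 and 6.42 CPM in pgEpiSC against 61.0 and 63.8 CPM in pEF (-3.00 ± 0.29). WIPI1, UVRAG, RB1CC1, ATG13 (with HARBI1), ATG12 (with AP3S1) and ATG4B (with THAP4) were the others higher in pEF, and ATG9A (with ABCB6) was higher in pgEpiSC (1.34 ± 0.30) in the member with more reads, but at its other end it was lower (-0.97 ± 0.28, edgeR adjusted p = 0.0409). With either pgEpiSC library left out 0 of the 25 were called towards pgEpiSC and 3 towards pEF, and by centred density the counts were 2 and 5.

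The transcription and protein turnover machinery had many members and few large differences. Of 27 Mediator genes 0 were called towards pgEpiSC and 7 towards pEF, of 39 genes of RNA polymerase II and general factors 3 and 11, of 37 proteasome genes 0 and 9, of 36 aminoacyl-tRNA synthetases 2 and 9, and of 34 translation factors 1 and 8. These shares towards pEF lay between 23.5% and 28.2%, near the 25.6% of all genes. Towards pgEpiSC the shares lay between 0% and 7.69%, below the 14.8% of all genes. Without pgEpiSC 1 or 4 the counts towards pEF were 2 and 1 for Mediator, 0 and 0 for RNA polymerase II, 1 and 1 for the proteasome, 2 and 2 for the synthetases and 1 and 1 for the translation factors. MED15, a Mediator tail subunit, had 11.2 and 14.9 CPM in pgEpiSC against 54.0 and 54.4 CPM in pEF (-2.05 ± 0.26). MED28 and MED1 were called in opposite directions by count (lower in pgEpiSC) and by centred density (1.41 and 0.91). PSMA3, of the proteasome core, whose region touches ACTR10, had 54.8 and 63.7 CPM in pgEpiSC against 129 and 118 CPM in pEF (-1.06 ± 0.19). The larger value of PSMA5 (-3.20 ± 0.37) came from a region of 15 kb between PSMA5 and SORT1. EIF4E, the cap-binding protein, had 60.6 and 47.7 CPM in pgEpiSC against 146 and 180 CPM in pEF (-1.59 ± 0.23), and EEF1A1 did not pass (-0.28 ± 0.17).

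Calls at spliceosome, mitochondrial ribosomal, respiratory chain and nuclear pore genes were close to evenly split, whereas those at cytosolic ribosomal genes were mostly towards pgEpiSC. Among 45 spliceosome genes 9 calls went each way. SNRPC, of the U1 particle, had 76.2 and 57.4 CPM in pgEpiSC against 24.5 and 22.7 CPM in pEF (edgeR adjusted p = 0.00744), whereas SF3B1, of the U2 particle, whose region touches COQ10B, had 49.6 and 45.6 CPM in pgEpiSC against 97.7 and 78.9 CPM in pEF (-0.89 ± 0.21). SF3A1 (with CCDC157), SF3A3 (with INPP5B) and SF3B4 (with MTMR11) were also higher in pEF, but by centred density SF3A1 was higher in pgEpiSC (1.02, limma adjusted p = 0.011). Without pgEpiSC 1 the split was 1 and 1, and without pgEpiSC 4 it was 2 and 0. Of 52 cytosolic ribosomal protein genes 14 were called towards pgEpiSC and 1, RPL14, towards pEF, with a median of 0.33, but the counts were 1 and 1 when either pgEpiSC library was left out. Of all genes with a symbol and a member, 14.8% were higher in pgEpiSC and 25.6% higher in pEF, and the shares of the next groups lay below those. Respiratory chain genes gave 7 and 5 of 57 (12.3% and 8.77%) and mitochondrial ribosomal genes 6 and 8 of 61 (9.84% and 13.1%). Nuclear pore genes gave 2 and 2 of 24 (8.33% each), and the medians of these groups lay between -0.04 and 0.07. Without pgEpiSC 1 these counts were 0 and 0 for the respiratory chain, 2 and 0 for mitochondrial ribosomal genes and 1 and 0 for the nuclear pore, and without pgEpiSC 4 they were 0 and 0, 1 and 0, and 1 and 0, in the same order.

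Genes of DNA replication had 5 of 36 higher in pgEpiSC and 3 in pEF, with a median of 0.25. MCM2, of the replicative helicase, had 35.6 and 30.6 CPM in pgEpiSC against 13.6 and 19.4 CPM in pEF (1.00 ± 0.30), and was also higher in pgEpiSC by centred density (1.15, limma adjusted p = 0.0146). The GINS subunits did not move together: GINS4 was at 2.44 ± 0.30 and GINS2 at 1.84 ± 0.32, whereas GINS3 was at -1.01 ± 0.27, all past the threshold in edgeR. PRIM1, the catalytic primase subunit, was at 3.39 ± 0.28, with 64.0 and 54.8 CPM in pgEpiSC against 6.40 and 4.94 CPM in pEF. PCNA, the sliding clamp, whose region touches TMEM230, had 79.2 and 73.3 CPM in pgEpiSC against 57.0 and 66.3 CPM in pEF and did not pass (0.31 ± 0.19). Without pgEpiSC 1 the counts were 3 and 0, and without pgEpiSC 4 they were 2 and 0.

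Immediate early, clock and heat shock genes respond to signals, daily time and stress. Of 10 immediate early genes, 1 was called towards pgEpiSC and 7 towards pEF, and the median was -1.09. JUN, an AP-1 factor, had 37.6 and 38.0 CPM in pgEpiSC against 159 and 164 CPM in pEF (-2.10 ± 0.18, edgeR adjusted p = 0.00178), and its centred density was lower as well (-0.93, limma adjusted p = 0.0163). MYC had 83.4 and 73.9 CPM in pgEpiSC against 133 and 189 CPM in pEF (-1.03 ± 0.24). EGR1, KLF2, KLF10, FOSL1 and ZFP36L1 were also higher in pEF, at -2.12 to -0.65. ATF3 was higher in pgEpiSC (3.15 ± 0.46), in a region shared with FAM71A. By centred density 0 of the 10 were higher in pgEpiSC and 1 in pEF. Clock genes gave 1 and 6 of 13, among them the repressors PER2 (-1.74 ± 0.27, in the member with more reads) and CRY1 (-1.28 ± 0.29) and the activator ARNTL (-1.82 ± 0.30). PER3, whose region touches VAMP3, was the one higher in pgEpiSC (0.87 ± 0.25). The member at the other end of PER2 was also higher in pgEpiSC (1.30 ± 0.35, edgeR adjusted p = 0.0320). By centred density 1 clock gene was called towards pgEpiSC and 4 towards pEF. Heat shock genes gave 2 and 5 of 19, with HSPH1, a nucleotide exchange factor of HSP70, at -3.01 ± 0.20 and HSF2, a heat shock transcription factor, at -2.66 ± 0.28. The share of heat shock genes called towards pEF, 5 of 19, was near the 25.6% of all genes, and by centred density the counts were 2 and 0. Without pgEpiSC 1 or 4, 2 immediate early, 1 clock and 3 or 4 heat shock genes were higher in pEF.

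The subunits of lactate dehydrogenase were called in opposite directions. LDHB had 58.8 and 59.4 CPM in pgEpiSC against 19.98 and 20.7 CPM in pEF (1.54 ± 0.21, edgeR adjusted p = 0.00487), whereas LDHA, the other common subunit of lactate dehydrogenase, had 25.8 and 19.9 CPM in pgEpiSC against 57.0 and 40.1 CPM in pEF (-1.09 ± 0.29, edgeR adjusted p = 0.0329). The types did not overlap in either. SLC2A1, the basal glucose transporter, was higher in pgEpiSC (1.18 ± 0.30) and HK2, PFKM (with SENP1), TPI1 (with SPSB2, USP5 and LRRC23) and PDHB (with PXK) were higher in pEF, giving 2 and 5 of 16. The other end of PDHB (chromosome 13, 40166401 to 40178600) was called the other way, at 1.70 ± 0.28 (edgeR adjusted p = 0.00813). The counts were 1 and 1 when either pgEpiSC library was left out.

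Few lineage genes were members. Among 6 epithelial adhesion genes, calls numbered 4 towards pgEpiSC and 0 towards pEF. KRT8, a keratin of simple epithelia, had 82.9 and 71.7 CPM in pgEpiSC against 5.52 and 4.65 CPM in pEF (3.93 ± 0.26), followed by RAB25 (with LAMTOR2 and UBQLN4), ESRP2 (with NFATC3) and CLDN7 (with ELP5). Among 8 mesenchymal factors, calls numbered 0 towards pgEpiSC and 5 towards pEF, namely ZEB1, OSR2, MSX2, NFIC and RUNX2. OSR2, a zinc finger factor of limb and palate mesenchyme, had 17.1 and 17.4 CPM in pgEpiSC against 160.2 and 145 CPM in pEF (-3.15 ± 0.20). Among 7 matrix genes they numbered 0 and 4: LOX, which crosslinks collagen, at -3.21 ± 0.26, the matrix glycoprotein TNC at -3.11 ± 0.43, FBLN2 at -1.61 ± 0.22 and COL5A2, whose region touches WDR75, at -0.84 ± 0.25. Without pgEpiSC 1 or 4, 3 and 2 epithelial genes were higher in pgEpiSC, and 3 and 2 mesenchymal factors and 3 and 3 matrix genes were higher in pEF. Without pEF 2 the calls at mesenchymal factors were 2 towards pgEpiSC and 5 towards pEF, and by centred density they were 1 and 4. By centred density the matrix genes had 1 and 2. Of 7 synaptic genes 0 passed in edgeR, with a median log2 fold change of 0.27. Of 4 hepatocyte genes APOA1 and APOC3, which share 1 region with SIK3, were higher in pgEpiSC (1.98 ± 0.48) and F2 was higher in pEF (-2.26 ± 0.22). When either pgEpiSC library was left out, 0 of the 4 were higher in pgEpiSC and 1 in pEF.

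Both ends of 1 gene did not always go together. For 1604 genes the ends lay in different members. Of these, 154 had both members called in the same direction and 107 in opposite directions. In 746, 1 of the 2 was called, and in 597 neither. Of all members, 15.5% were called higher in pgEpiSC and 24.7% higher in pEF. Whether these pairs differ from pairs of members drawn without regard to gene was not tested. The pair of members farthest apart was at PLEKHM2, an adaptor between lysosomes and kinesin. The member at its lower coordinate on chromosome 6 (74864001 to 74866200) had 12.7 and 11.8 CPM in pgEpiSC against 63.6 and 48.3 CPM in pEF (-2.19 ± 0.26), and the one at its upper coordinate (74902001 to 74917800) had 58.6 and 74.0 CPM in pgEpiSC against 6.13 and 4.28 CPM in pEF (3.67 ± 0.32). ITGA1, an integrin subunit that binds collagen, was at -3.85 ± 0.23 and 1.86 ± 0.42. Both genes were picked out after their values were seen.

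The limits of the rule cut through similar regions. The widest members, of 19.8 kb, were at SP1, a general activator of GC-rich promoters, and at USP34, a deubiquitinase. SP1 had 147 and 142 CPM in pgEpiSC against 149 and 132 CPM in pEF. The narrowest regions left out, of 20 kb, were at HDGF, MRPL24 and RRNAD1, with 201 and 216 CPM in pgEpiSC against 218 and 192 CPM in pEF, and at C2H19orf53, MRI1 and ZSWIM4, with 142 and 137 CPM in pgEpiSC against 190.3 and 194 CPM in pEF. The members farthest from a gene end, both 1997 bases away, were at PWWP2A and ZNF366, with log2 fold changes of 2.11 and 1.40. The nearest regions left out were 2003 and 2007 bases away, with log2 fold changes of 1.82 and -2.53.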

How the data were processed

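ChIP for H3K27ac with sequencing was done in 2 pgEpiSC and 2 pEF libraries, each with an input library. The deposited lists give, per island, the count of ChIP reads and of input reads, a p-value, the fold of ChIP over input (a ratio) and the FDR, as the authors' SICER run wrote them. Reads were aligned with BWA 0.7.15 and handled with SAMtools 0.1.19, and islands were called with SICER 1.1, per the submitters' processing notes. Island starts and ends lie on windows of 200 bases. The genome build and the island settings are not given in the sources used here. Gene ends came from the RefSeq gene table of Sscrofa11.1, which has no strand, and coordinates are those of the deposited lists. Input libraries were used only as the input reads in those lists.

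Islands on chromosomes 1 to 18 that overlap by at least 1 base were merged. The deposited counts of ChIP reads were summed over a library's own islands in each region, so reads outside its islands are absent and a count depends on island length. Counts were tested with edgeR 4.0.16 (quasi-likelihood, TMM, R 4.3.3) over all 20051 regions with an island in all 4 libraries, with Benjamini-Hochberg adjustment at 0.05, and members' rows were taken from that fit. Density, island length and fold were tested on their log2 with limma 3.58.1, the fold with 1 read added to ChIP and input. Centred values had each library's median region subtracted. DESeq2 1.42.0 was an alternative. Merging and summaries ran in Python 3.11.15 with pandas 2.3.3 and numpy 2.4.6, the exact test in scipy 1.17.1, and figures in matplotlib 3.10.9. The steps were tested on simulated data. Totals of ChIP reads in islands, 29679982 to 46383051 per library, set the precision. Standard errors were derived from edgeR's test, which pools the spread between the 2 libraries per type over regions. They are thus not the spread at a single region.

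Members with values were, per direction, the 8 with the largest log2 fold change whose CPM did not overlap and whose gene has a symbol, the 5 with the highest CPM, the 5 smallest differences among the 1000 with the highest CPM, the 2 genes with the most reads in each list, a few common reference and marker genes, the regions at the limits of the rule, and the 3 members that touch the most genes. Some members that meet this rule are not reported here. Further list genes were chosen after their values were seen. The members and the gene lists were chosen with earlier results of these data known.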

Additional observations from a re-analysis of the deposited data

How the results depend on the processing

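The counts of members higher in pgEpiSC and higher in pEF, 1341 and 2135, were 1351 and 2106 with DESeq2 size factors, 1277 and 2189 with library sizes alone, 1509 and 2316 with DESeq2, 1289 and 1721 after subtracting input, and 1324 and 2079 with islands at an FDR under 0.01. Leaving out 1 library gave 403 to 1427 and 657 to 2140, the low ends coming without a pgEpiSC library, where the lone sample is assumed to vary like the pEF libraries. Per kb of island the counts were 258 and 3503. With islands of at least 2-fold over input they were 1034 and 1411, with islands covering at least 50% of the region in each library 448 and 550, and under 10 kb 637 and 1437. Added after seeing the data were density centred per library (1035 and 985), ChIP over input centred per library (615 and 834) and members with no input call (635 and 1369). The number of members, 8629, was 5531 at 2-fold, 3363 at 50% cover, 5925 under 10 kb, 8436 with a window of 1 kb and 8461 at an FDR under 0.01. Members with an input call, 1815, were 1783 with library sizes alone and 909 to 1032 with 1 library left out. The difference in median fold between members and regions away from gene ends, 2.03 as a mean over both types, stayed between 1.48 and 2.49 over all settings tried. The log2 ratio of density, 0.86, stayed between 0.79 and 0.93. Leaving out a library changes the share of each type in these means.

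Of 81 genes named by rule, all 81 kept direction and side of the threshold with DESeq2, library sizes alone or the low-count filter. Without pgEpiSC 1, 13 were no longer called, and without pgEpiSC 4, 14. Per kb of island, direction turned for ZDHHC17 (-0.68), CLDN7 (-0.40), RAB25 (-0.079), BSN (-0.81), MED11 (-0.75), PFDN6 (-0.81), MRPL49 (-1.59), PMVK (-1.87), DNAJA2 (-0.93) and USP34 (-0.80). By centred density it turned for GTF2A1 (0.47), LARS2 (0.12), RPL14 (0.089), MRPL49 (-1.07), SEC24D (0.24), PMVK (-1.34) and USP34 (-0.28). By centred ChIP over input the values of the same 7 were 0.49, 0.28, 0.074, -1.20, 0.25, -1.17 and -0.29. A density divides reads by the length of the library's own islands, so island length enters it by construction. Other causes were not tested. No paired analysis was possible because the libraries of both types share only replicate number 1. The share of members that hold a gene start was not run, since the gene table used has no strand. The lists hold reads inside islands only, so a region without an island has no count here, and depth there is unknown.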
